A study of Mus musculus with 8 samples.

Results

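The genes described here are 39 genes of xenobiotic metabolism, glutathione chemistry and antioxidant defence, chosen by name for their biochemical roles from the 25124 gene symbols measured. They were measured by RNA-seq in mouse cells that had been sorted from lung by flow cytometry and labelled airway epithelial cells. The 8 libraries form 4 groups of 2, all on the C57BL/6 strain. The groups are STAT3-cKO mice given house dust mite allergen (HDM), STAT3-WT mice given HDM, STAT3-cKO mice given phosphate-buffered saline (PBS) and STAT3-WT mice given PBS, called cKO HDM, WT HDM, cKO PBS and WT PBS below. STAT3 transmits signals of IL-6 and related cytokines to the nucleus, and cKO stands for its conditional knockout. The sources used here do not give the driver and cell type of the knockout, the dosing schedule, the age and sex of the mice or any pooling of animals. Whether the paired libraries of a group are different mice is not stated, so the p-values cover only library-to-library spread, possibly technical.

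Foreign chemicals are cleared in steps. Phase I enzymes such as cytochromes P450 and flavin monooxygenases oxidise a compound, and phase II enzymes such as glutathione transferases attach a water-soluble group to it. Glutathione, a tripeptide, is made by glutamate cysteine ligase and glutathione synthetase, and kept reduced by glutathione reductase. The transcription factor NRF2, encoded by Nfe2l2, induces many of these genes under oxidative or electrophilic stress through antioxidant response elements. In the lung, the secretory club cells of the airways are known for their high content of P450 enzymes.

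The reads counted in the listed genes summed to 232556 to 593200 per library, a 2.55-fold range, which is few for RNA-seq. How many reads were sequenced cannot be told from these counts, and shares of reads below are shares of the counted reads. Levels are given as normalized read counts, the deposited values, in which 3 reads, the limit that a count of 0 allows, are worth 1.96 to 4.88 depending on the library. Stat3, the targeted gene, stood at 76.9 and 92.2 in cKO HDM, 134 and 157 in WT HDM, 56.9 and 96.5 in cKO PBS, and 75.8 and 40.9 in WT PBS. Under HDM both cKO values lay under both WT values, as they did for 21.9% of all genes tested, while the PBS ranges of both genotypes overlap. Stat3 thus does not tell the genotypes apart under PBS, and directions between genotypes below are taken from the labels. Epcam, an epithelial surface marker, was present in every library at 99.7 to 179. Scgb1a1, a club cell secretoglobin, had 1589 and 2189 in cKO HDM, 1545 and 2440.5 in WT HDM, 4213 and 2897 in cKO PBS, and 2161 and 2026 in WT PBS. Foxj1, a regulator of ciliated cells, had 809.8 and 682 in cKO HDM, 379.5 and 395 in WT HDM, 708 and 485 in cKO PBS, and 550.4 and 534 in WT PBS. Sftpc, the alveolar surfactant protein C, had 856 and 801 in cKO HDM, 1519 and 2878 in WT HDM, 981 and 1209 in cKO PBS, and 765 and 1289 in WT PBS. Of 5 basal cell markers Krt14 and Dlk2 were at 0 in every library. The 14 alveolar type 2 markers took 1.32% to 4.29% of reads, so the cells held alveolar as well as airway transcripts. The WT HDM libraries stood apart in markers of other cell types. Endothelial markers (15 genes) made up 0.336% to 0.341% of the counted reads of WT HDM libraries, against 0.0644% to 0.100% in the other libraries. Fibroblast and smooth muscle markers (12 genes) took 0.321% to 0.322% against 0.00903% to 0.0306%.

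All 39 genes were detected, and 37 had a value above 0 in every library. To compare levels between genes, normalized read counts were divided by exon length in kilobases, from the GENCODE M21 annotation. On that scale the mean over the 8 libraries was highest for Aldh1a1, a retinal and aldehyde dehydrogenase, at 545 per kb, with a range of 373 to 729. Gsto1, an omega-class glutathione transferase, followed at 385 per kb (268 to 669). Ces1d, a carboxylesterase, stood at 233 per kb (143 to 302), and Cyp2s1, a P450 enzyme, at 231 per kb (177 to 291). Por, the reductase that supplies electrons to microsomal P450 enzymes, stood at 210.3 per kb (159.7 to 290). From Gsto1 to Por the ranges of neighbours overlapped, and so did those of Aldh1a1 and Gsto1. At the low end were Cyp2j6, a P450 enzyme, at 2.34 per kb and Gstm5, a mu-class glutathione transferase, at 1.19 per kb. These were the 2 genes whose mean lay under 10 normalized read counts, the minimum for testing, and 37 were tested.

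Cyp2j6 had 13.1 and 0 normalized read counts in cKO HDM, 6.52 and 5.16 in WT HDM, 8.13 and 17.8 in cKO PBS, and 6.89 and 10.003 in WT PBS. Gstm5 had 0 reads in all 4 HDM libraries, against 0 and 4 reads in cKO PBS and 1 and 4 reads in WT PBS. Most of these values lie near the limit that a count of 0 allows, neither gene was tested, and no fold is given.

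The first question was how exposure to HDM went with these genes when both genotypes were averaged. Cyp4b1, Ces1d, Mgst1 and Cat had lower values in every HDM library than in any PBS library, and Gclc, the catalytic subunit of glutamate cysteine ligase, had higher ones. None of the 37 tested genes passed the threshold, an adjusted p under 0.05 by limma over all 7512 genes tested, where 0.399% of genes passed. At an unadjusted p under 0.05 there were 11 of the 37, against 8.45% of all genes, of which 10 were lower with HDM (27.0%, against 3.14%) and 1 was higher (2.70%, against 5.31%). The median log2 fold change of the 37 was -0.21, against 0.04 over all genes tested, and 24 of 37 were negative (64.9%, against 47.2%). edgeR passed 0 of the 37, where 0.572% of all genes passed, and DESeq2 passed 4 (Gclc, Ces1d, Cyp4b1 and Aldh3a1), where 1.41% passed. Fold changes are of the normalized read count plus 1, HDM over PBS, and errors after ± on them are standard errors.

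In 4 of 37 genes (10.8%, against 1.66% of all genes tested) every HDM library lay below every PBS library. Cyp4b1, a P450 enzyme abundant in lung that activates pneumotoxic furans, had 181 and 197 normalized read counts in cKO HDM and 152 and 155 in WT HDM, against 306 and 257 in cKO PBS and 265 and 273 in WT PBS. Its log2 fold change was -0.69 ± 0.18 (limma adjusted p = 0.155). All 4 HDM values lay under the lowest PBS value, 257. Ces1d had 438 and 393 in cKO HDM and 363 and 286 in WT HDM, against 568 and 606 in cKO PBS and 550.4 and 527 in WT PBS. For this carboxylesterase, which hydrolyses ester drugs and triglycerides, the log2 fold change was -0.62 ± 0.15 (limma adjusted p = 0.135).

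Mgst1, a membrane-bound glutathione transferase that also reduces lipid hydroperoxides, had 156 and 182 in cKO HDM and 179 and 169 in WT HDM, against 343 and 212 in cKO PBS and 331 and 185 in WT PBS. Its groups only just separated, since the highest HDM value, 182, lies beside the lowest PBS value, 185 (log2 fold change -0.59 ± 0.22). Cat, the hydrogen peroxide-degrading catalase, had 188 and 213 in cKO HDM and 193 and 182 in WT HDM, against 298 and 278 in cKO PBS and 236 and 219 in WT PBS (log2 fold change -0.40 ± 0.17). Without the second cKO HDM library 8 of 37 separated in this direction (21.6%, against 3.26% of all genes), and without the second cKO PBS library 7 (18.9%, against 3.14%).

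Gclc was the 1 gene of 37 (2.70%, against 2.26% of all genes tested) that was higher in every HDM library than in any PBS library. It had 259 and 189 normalized read counts in cKO HDM and 290.2 and 383 in WT HDM, against 171 and 123 in cKO PBS and 142 and 151 in WT PBS. The HDM mean was 280.2 ± 80.6 and the PBS mean 147 ± 19.8 (SD, n = 4 libraries of 2 genotypes each). Its log2 fold change of 0.89 ± 0.20 had a 95% interval of 0.47 to 1.32 (limma adjusted p = 0.0870, and adjusted p = 0.0273 without the first cKO PBS library). Over all leave-one-out fits the limma adjusted p of Gclc ran from 0.0273 to 0.482, and over the other settings and tools from 0.00656 to 0.306. Without the second WT HDM library 2 of 37 separated upward (5.41%, against 3.21% of all genes). Gclc lies on chromosome 9 (77754535 to 77794489, GRCm38) and shares no 50-base stretch of its longest transcript with another gene.

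**Figure D1:**
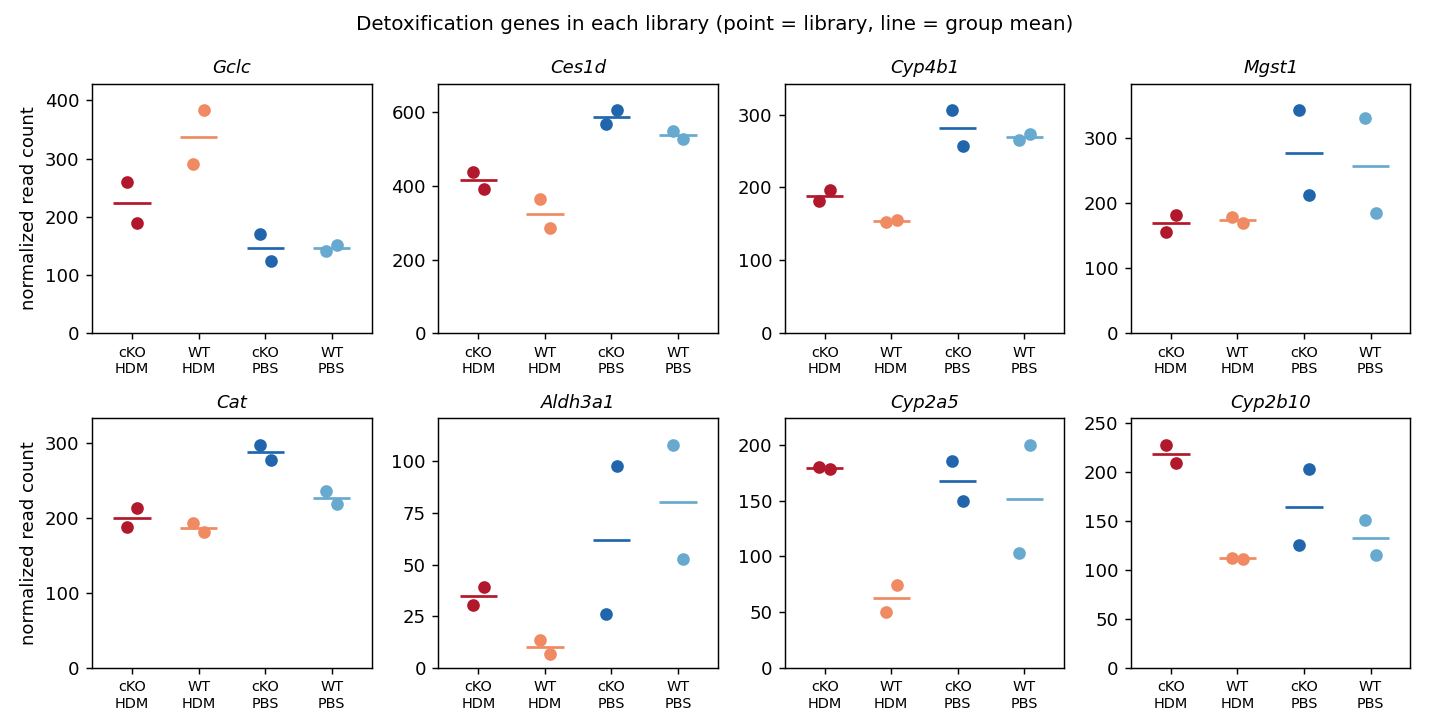
Normalized read counts (y axis) of 8 detoxification genes in each group (x axis), with 1 point per library and a line at the group mean of 2 libraries. For Gclc all 4 HDM values lie above the PBS values, and for Ces1d, Cyp4b1, Mgst1 and Cat all 4 lie under them. Cyp2a5 is lowest in the WT HDM libraries. For Cyp2b10 the WT HDM values, 113 and 111, lie only just under the lowest PBS value, 115.

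**Figure D2:**
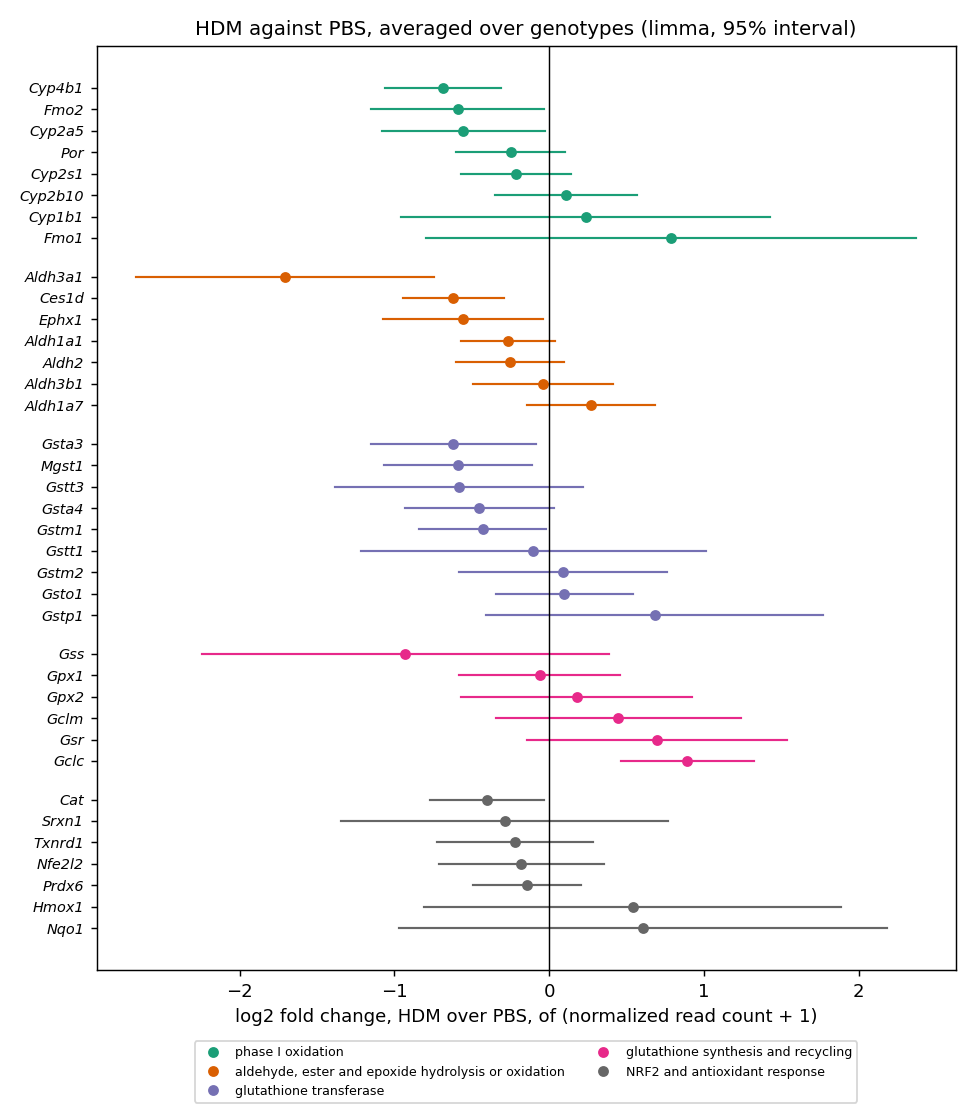
Log2 fold change of HDM over PBS averaged over genotypes (x axis) for the 37 tested genes, grouped by role (rows), with limma's 95% interval as a bar. The estimates run from -1.71 for Aldh3a1 to 0.89 for Gclc, and 11 intervals exclude 0.

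The sequences before the transcription starts of Cyp4b1, Mgst1 and Cat are shown because these genes separated together. Each is the 250 bases before the start on the gene's strand, from RefSeq (GRCm38.p6), at chr4:115647722-115647971 (minus strand), chr6:138140277-138140526 (plus strand, the first of 2 starts listed) and chr2:103485154-103485403 (minus strand). Capitals mark matches to the STAT motif TTCNNNGAA in Cyp4b1 and to the core of the antioxidant response element, TGACNNNGC or GCNNNGTCA on the other strand, in Mgst1.
Cyp4b1: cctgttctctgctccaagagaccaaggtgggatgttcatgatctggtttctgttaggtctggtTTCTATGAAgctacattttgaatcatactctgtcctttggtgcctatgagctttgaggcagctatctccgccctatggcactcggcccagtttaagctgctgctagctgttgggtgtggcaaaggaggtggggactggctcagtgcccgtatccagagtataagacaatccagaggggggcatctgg
Mgst1: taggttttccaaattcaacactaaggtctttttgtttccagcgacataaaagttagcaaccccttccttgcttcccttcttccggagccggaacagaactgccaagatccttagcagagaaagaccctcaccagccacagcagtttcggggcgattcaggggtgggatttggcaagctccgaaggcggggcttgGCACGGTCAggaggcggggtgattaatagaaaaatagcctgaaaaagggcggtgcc
Cat: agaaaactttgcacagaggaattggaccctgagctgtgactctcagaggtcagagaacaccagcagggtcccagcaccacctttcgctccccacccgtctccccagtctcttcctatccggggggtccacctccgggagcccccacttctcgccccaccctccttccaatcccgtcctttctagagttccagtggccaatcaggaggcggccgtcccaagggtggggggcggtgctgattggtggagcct
Cat held neither motif in this window, nor the dioxin response element core GCGTG, or CACGC on the other strand. Ces1d, which separated with the genes shown, had no start listed, nor had Gclc, Aldh3a1, Gsr and Hmox1. Starts were listed for 30 of the 39 genes, in 37 windows. The antioxidant element core was in 16.2% of these windows and in 10.2% of all 32851 windows, the dioxin element core in 37.8% and 28.2%, and the STAT motif in 8.11% and 7.02%. A match is a run of letters and not a measured binding site.

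The phase I enzymes differed among themselves. Of 8 tested, 5 had an HDM estimate below 0 when averaged over genotypes (62.5%, against 47.2% of all genes), with a median log2 fold change of -0.23. Cyp2s1 had 886 and 705 normalized read counts in cKO HDM and 559 and 565 in WT HDM, against 919 and 658 in cKO PBS and 644 and 918 in WT PBS. Por had 528 and 664 in cKO HDM and 471 and 436 in WT HDM, against 791 and 518 in cKO PBS and 602 and 581 in WT PBS. For both genes the WT HDM pair was the lowest of the 4 groups, and the cKO HDM range overlapped the cKO PBS range. Fmo2, the flavin monooxygenase typical of lung, stood at -0.59 ± 0.26, with a limma unadjusted p under 0.05 and no pass after adjustment. Cyp1b1, an enzyme induced through the dioxin receptor, and Fmo1 were low, at 6.37 to 21.6 and 3.63 to 36.1 over the 8 libraries, and had wide errors (0.24 ± 0.56 and 0.79 ± 0.74).

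Among the enzymes that act on aldehydes, esters and epoxides, 6 of 7 had an HDM estimate below 0 (85.7%, against 47.2% of all genes). Aldh3a1, an aldehyde dehydrogenase that oxidises lipid peroxidation products in airway and cornea, had the lowest estimate of all 37 genes, at -1.71 ± 0.45 averaged over genotypes (limma adjusted p = 0.189, and adjusted p = 0.0113 without the first cKO PBS library). With 1 library left out its limma adjusted p ran from 0.0113 to 0.698, and over the other settings and tools from 0.0129 to 0.459. Aldh3a1 had 30.5 and 39.04 in cKO HDM and 13.7 and 6.45 in WT HDM, against 26.0 and 97.8 in cKO PBS and 108 and 52.7 in WT PBS. The second WT HDM value rests on 5 reads and the first cKO PBS value on 16. In WT the HDM and PBS libraries separated, and in cKO they overlapped, since the first cKO PBS library lay under both cKO HDM libraries. Aldh1a1 had 1272 and 1385 in cKO HDM and 894 and 1199 in WT HDM, against 1747 and 1346 in cKO PBS and 1330.3 and 1261 in WT PBS (log2 fold change -0.27 ± 0.14). Its neighbour and close relative Aldh1a7 was the exception in this group, at 0.27 ± 0.19. The longest transcripts of both share few 50-base windows, 6.54% of those of Aldh1a1. Ephx1, the microsomal epoxide hydrolase, stood at -0.56 ± 0.24, Aldh2, the mitochondrial acetaldehyde dehydrogenase, at -0.25 ± 0.16, and Aldh3b1, which acts on long-chain lipid aldehydes, at -0.04 ± 0.21.

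Of the 9 glutathione transferases tested, 6 had an HDM estimate below 0 (66.7%, against 47.2% of all genes), with a median of -0.43. Gsta3, an alpha-class enzyme that conjugates aflatoxin epoxide in mice, had 54.4 and 68.9 in cKO HDM and 67.8 and 107 in WT HDM, against 122 and 110.5 in cKO PBS and 127 and 90.0 in WT PBS (-0.62 ± 0.25). Gsto1 had 382 and 791 in cKO HDM and 401 and 347 in WT HDM, against 499 and 471 in cKO PBS and 317 and 429 in WT PBS. The second cKO HDM value stands alone, and Gsto1 stood at 0.10 ± 0.21. Gstm1, a mu-class enzyme, stood at -0.43 ± 0.19 and Gsta4, which conjugates the lipid aldehyde 4-hydroxynonenal, at -0.45 ± 0.23. The 95% intervals of Gstt1, Gstt3, Gstm2 and Gstp1 all span 0. Gstp1 shares 62.3% of the 50-base windows of its transcript with Gstp2, and Gstm1 shares 23.1% of its windows with other genes, so their counts depend on how reads were assigned.

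Of 6 genes of glutathione synthesis and recycling, 4 had an HDM estimate above 0 and 2 below (33.3%, against 47.2% of all genes). Their median log2 fold change was 0.31, and Gclc alone had a limma unadjusted p under 0.05. Gclm, the regulatory partner of Gclc, had 109 and 55.6 in cKO HDM and 44.3 and 28.4 in WT HDM, against 52.1 and 20.3 in cKO PBS and 39.8 and 50.9 in WT PBS. Gclm was thus highest in a cKO library, while Gclc was highest in WT HDM. The 250 bases before the listed Gclm start (RefSeq, GRCm38.p6, chr3:122245307-122245556, plus strand) are shown because Gclm is a textbook NRF2 target. The RefSeq gene record begins earlier, at 122245487, so the end of this window, with the last dioxin element core, lies inside the gene. Capitals mark the antioxidant element core and 3 dioxin element cores.
Gclm: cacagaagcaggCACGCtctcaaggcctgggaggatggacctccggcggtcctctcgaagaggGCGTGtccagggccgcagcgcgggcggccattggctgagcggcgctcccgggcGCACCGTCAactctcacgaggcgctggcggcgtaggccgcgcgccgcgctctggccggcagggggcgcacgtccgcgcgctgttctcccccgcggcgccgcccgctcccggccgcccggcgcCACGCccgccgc
Gsr, glutathione reductase, had 109.6 and 158 in cKO HDM and 120.0 and 174 in WT HDM, against 27.7 and 160.0 in cKO PBS and 113 and 102 in WT PBS. The value of 27.7 comes from 17 reads in the first cKO PBS library and lies far from its replicate. With the second cKO PBS library left out, so that the first is assumed to vary like the other groups, Gsr passed the limma threshold in 3 comparisons that use cKO PBS. Under that setting 320 genes passed for HDM in cKO, 315 for cKO against WT under PBS and 193 for HDM averaged over genotypes, against 4, 0 and 30 with all libraries. Gss, glutathione synthetase, had 24.7 and 30.7 in cKO HDM and 17.0 and 1.29 in WT HDM, against 32.5 and 20.3 in cKO PBS and 28.3 and 20.01 in WT PBS. The value of 1.29 is a single read. Gpx1 and Gpx2, the glutathione peroxidases, stood at -0.06 ± 0.25 and 0.18 ± 0.35.

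Among NRF2 and its antioxidant targets, 5 of 7 had an HDM estimate below 0 (71.4%, against 47.2% of all genes), with a median of -0.18. Nfe2l2 itself stood at -0.18 ± 0.25, with levels of 59.3 to 133 over the 8 libraries. Prdx6, a peroxiredoxin that also acts on lung phospholipids, had 369 and 488 in cKO HDM and 281 and 338 in WT HDM, against 390.4 and 427 in cKO PBS and 399 and 379 in WT PBS. Again the WT HDM pair was the lowest. Nqo1, a quinone reductase often used as an NRF2 readout, was low throughout, with 10.9 and 11.6 in cKO HDM and 19.6 and 7.74 in WT HDM, against 1.63 and 6.35 in cKO PBS and 16.8 and 13.6 in WT PBS. Hmox1, the inducible haem oxygenase, had 22.5 and 7.48 in cKO HDM and 36.5 and 38.7 in WT HDM, against 30.9 and 22.9 in cKO PBS and 2.30 and 25.5 in WT PBS. Txnrd1, thioredoxin reductase, stood at -0.22 ± 0.24 and Srxn1, sulfiredoxin, at -0.29 ± 0.50. For this group the 95% intervals of all but Cat include 0.

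HDM against PBS was then taken within each genotype. In WT mice 0 of 37 genes passed with limma, where 0.519% of all genes passed, and 9 had an unadjusted p under 0.05, against 8.93% of all genes. Of these 7 were lower (18.9%, against 4.43%) and 2 higher (5.41%, against 4.5%). The median was -0.28, against -0.03 over all genes. edgeR passed 0 (0.785% of all genes) and DESeq2 passed 2, Aldh3a1 and Gclc (1.78% of all genes). Aldh3a1 stood at -2.87 ± 0.64 (limma adjusted p = 0.0625) and Gclc at 1.18 ± 0.28 (limma adjusted p = 0.0950). Both passed with limma once either cKO PBS library was left out, with adjusted p = 0.00525 and 0.0107 for Aldh3a1 and 0.0346 and 0.0349 for Gclc without the first and second, settings in which 108 and 110 of all genes passed, against 39 with all libraries. Over all leave-one-out fits the limma adjusted p ran from 0.00525 to 0.689 for Aldh3a1 and from 0.0346 to 0.806 for Gclc, and over the other settings and tools from 0.00450 to 0.223 and from 0.00880 to 0.224. Cyp2a5, a coumarin and nicotine oxidising P450 enzyme, stood at -1.22 ± 0.35 (limma adjusted p = 0.192, and -0.74 without the second WT PBS library), and Ces1d at -0.74 ± 0.22 (limma adjusted p = 0.210).

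In cKO mice 0 of 37 passed with limma, where 0.0532% of all genes passed. At an unadjusted p under 0.05 there were 5, against 7.77% of all genes, with 4 lower (10.8%, against 2.4%) and 1 higher (2.70%, against 5.38%) and a median of -0.09 against 0.10 over all genes. edgeR passed 0 (0.0532% of all genes), and so did DESeq2 (0.373% of all genes). The 4 smallest p-values were those of Gsta3 at -0.91 ± 0.36, Gclm at 1.23 ± 0.53, Ces1d at -0.50 ± 0.22 and Cyp4b1 at -0.57 ± 0.25, with limma adjusted p from 0.541 to 0.588. With 1 library left out Gclm ran from 0.57, without the second cKO PBS library, to 1.89, without the first. It stood at 0.75 without the first cKO HDM library. For Ces1d and Cyp4b1 both cKO HDM libraries lay under both cKO PBS libraries, and the same held in WT. Both follow from the separation of all HDM from all PBS libraries given above. Of the 37 genes 8 lay lower in this way in cKO (21.6%, against 16.7% of all genes tested). In WT 19 did (51.4%, against 20.8%).

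In both genotypes the sign was the same for 25 of 37 genes (67.6%), against 50.1% of all genes tested, and 17 were lower with HDM in both (45.9%, against 23.0%). These comparisons share no library, but share the spread estimated over all 8. The genotype by treatment interaction, which asks whether the responses differed, passed for 0 of 37 genes with limma, where 0.0266% of all genes passed, and 3 had an unadjusted p under 0.05, against 7.77% of all genes. Of these 2 were positive, against 4.31%, and 1 negative, against 3.46%. edgeR and DESeq2 passed 0 as well (0.0932% and 0.367% of all genes). The response in cKO minus that in WT was 1.32 ± 0.49 for Cyp2a5, 2.33 ± 0.91 for Aldh3a1, -3.01 ± 1.27 for Hmox1 and 1.57 ± 0.74 for Gclm, with limma adjusted p from 0.547 to 0.643. With 1 library left out these values ran from 0.85 to 1.80 for Cyp2a5, from 1.39 to 3.26 for Aldh3a1, from -4.52 to -1.51 for Hmox1 and from 0.91 to 2.22 for Gclm. The values nearest 0 came without the second WT PBS library for Cyp2a5, the first cKO PBS library for Aldh3a1, the first WT PBS library for Hmox1 and the second cKO PBS library for Gclm.

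**Figure D3:**
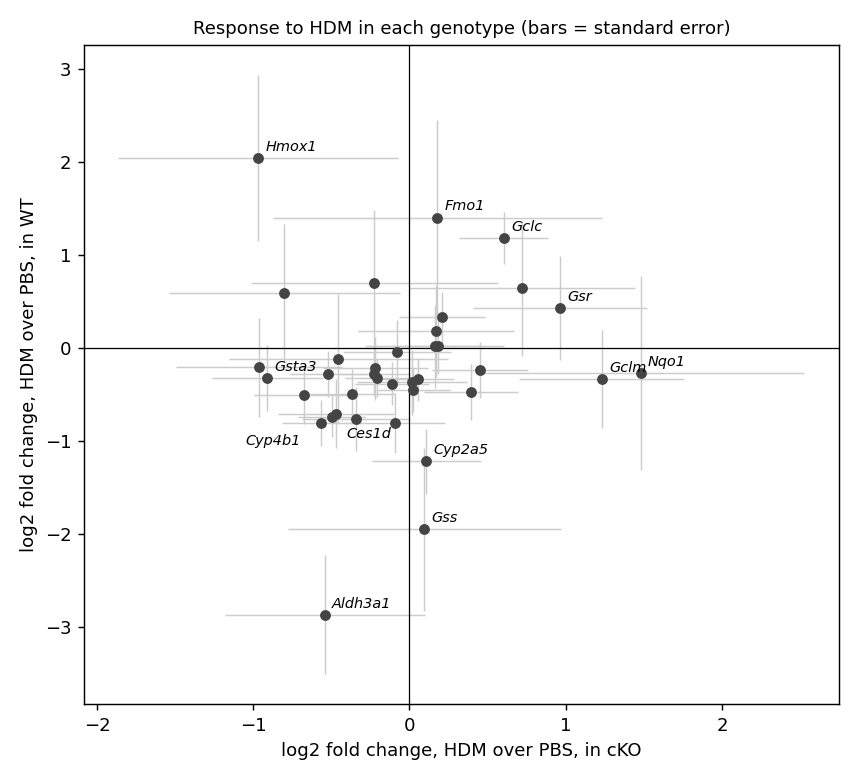
Log2 fold change of HDM over PBS in WT (y axis) against that in cKO (x axis) for the 37 tested genes, each a point with standard errors as bars and 12 genes named. Aldh3a1 is lowest in WT at -2.87, Gclc lies above 0 in both, and Ces1d and Cyp4b1 lie below 0 in both.

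Genotypes were compared under HDM, the contrast in the study's title. The xenobiotic P450 enzymes Cyp2a5 and Cyp2b10 stood higher in cKO HDM than in WT HDM. Of 37 genes 0 passed with limma, where 0.572% of all genes passed. At an unadjusted p under 0.05 there were 6, against 9.6% of all genes, all 6 higher (16.2%, against 5.02%) and 0 lower (against 4.58%), with a median of 0.13 against 0.02 over all genes. edgeR passed 0 (0.719% of all genes) and DESeq2 passed 1, Cyp2a5 (1.86% of all genes).

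Cyp2a5 had 181 and 179 normalized read counts in cKO HDM against 50.2 and 74.8 in WT HDM, and 185 and 149.8 in cKO PBS against 103 and 200.1 in WT PBS. The WT HDM libraries were the lowest of the 8, and the cKO HDM libraries lay within the PBS range. The log2 difference, cKO over WT under HDM, was 1.54 ± 0.35 with a 95% interval of 0.79 to 2.28 (limma adjusted p = 0.0723, 0.0298 if the first cKO PBS library was left out and 0.0340 if the second was). Of all genes 115 and 117 passed in those settings, against 43 with all libraries. With any 1 library left out the limma adjusted p ran from 0.0298 to 0.428, and over the other settings and tools from 0.00714 to 0.217. Cyp2a5 lies on chromosome 7 (26835339 to 26843264, GRCm38). Of its 50-base windows 40.8% occur also in other genes, and 31.0% in Cyp2a4, so its counts depend on how reads were assigned. Cyp2a4 had 0 to 4.88 normalized read counts in the 8 libraries and was too low to be tested.

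Cyp2b10, a phenobarbital-inducible enzyme of the receptor CAR, had 228 and 209 in cKO HDM against 113 and 111 in WT HDM, and 125 and 203 in cKO PBS against 151 and 115 in WT PBS. Both cKO HDM values lay above every other library, by 0.96 ± 0.30 over WT HDM on the log2 scale (limma adjusted p = 0.246). Aldh3a1 stood at 1.76 ± 0.64 (limma adjusted p = 0.352) and Gss at 2.15 ± 0.87 (limma adjusted p = 0.434). Gss stood at 0.67 once the WT HDM library with its single read was left out. Aldh3b1 at 0.69 ± 0.30 and Gsta4 at 0.72 ± 0.32 were the other genes with an unadjusted p under 0.05. The windows before the starts of both P450 genes are given because these genes had the 2 smallest p-values here, from RefSeq (GRCm38.p6, plus strand, chr7:26835089-26835338 for Cyp2a5 and chr7:25897408-25897657 for Cyp2b10), with 2 dioxin element cores in capitals in Cyp2b10.
Cyp2a5: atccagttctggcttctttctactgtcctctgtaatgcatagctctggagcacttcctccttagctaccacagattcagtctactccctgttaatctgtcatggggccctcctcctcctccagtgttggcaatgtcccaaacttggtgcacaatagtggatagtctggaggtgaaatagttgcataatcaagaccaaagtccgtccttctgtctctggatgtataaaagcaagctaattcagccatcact
Cyp2b10: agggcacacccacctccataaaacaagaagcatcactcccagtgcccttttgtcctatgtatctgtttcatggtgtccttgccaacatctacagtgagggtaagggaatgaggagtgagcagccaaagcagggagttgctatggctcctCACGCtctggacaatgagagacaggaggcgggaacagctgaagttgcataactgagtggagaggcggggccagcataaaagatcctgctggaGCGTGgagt
Cyp2a5 held none of the 3 motifs in this window.

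**Figure D4:**
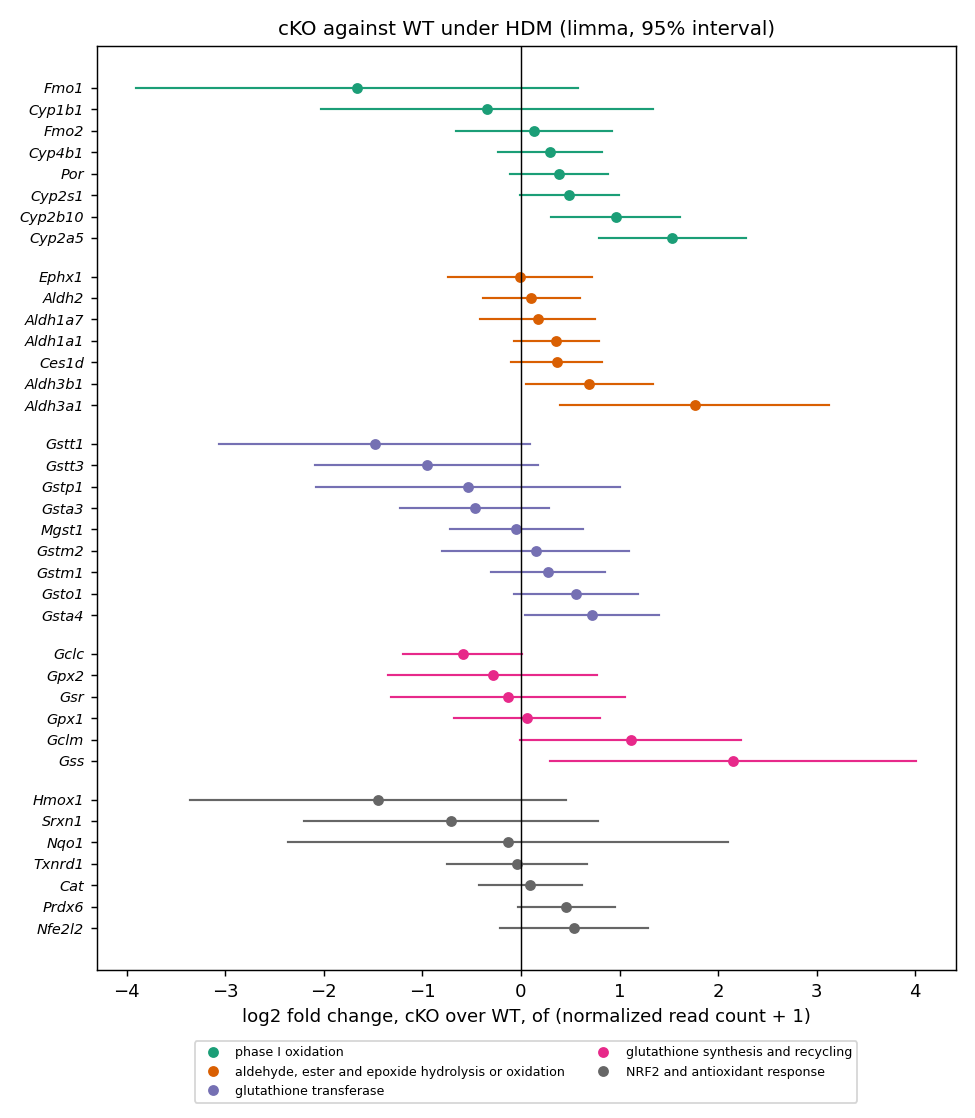
Log2 fold change of cKO over WT under HDM (x axis) for the 37 tested genes, grouped by role (rows), with limma's 95% interval as a bar. Cyp2a5 and Cyp2b10 lie highest among the phase I enzymes, at 1.54 and 0.96, and the 6 intervals that exclude 0 are all on the positive side.

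The genotypes were compared under PBS in the same way. Of 37 genes 0 passed with limma (0% of all genes), 0 had an unadjusted p under 0.05, where 6.96% of all genes did (2.17% higher and 4.79% lower), and edgeR and DESeq2 passed 0 (0% of all genes for both). The 4 smallest unadjusted p-values were those of Nqo1 at -1.88 ± 1.05, Hmox1 at 1.56 ± 0.90, Cat at 0.34 ± 0.24 and Gsto1 at 0.39 ± 0.29, cKO over WT, with limma adjusted p from 0.741 to 0.797. With 1 library left out Nqo1 ran from -2.62 to -1.14, with the value nearest 0 without the first cKO PBS library, and Gsto1 from 0.18 to 0.61, without the first and the second WT PBS library. Hmox1 stood at 0.06 without the first WT PBS library and at 3.07 without the second. Nqo1 rests on 1 and 5 reads in cKO PBS, and Hmox1 on 3 reads in the first WT PBS library. Cyp2a5 stood at 0.21 ± 0.35 and Cyp2b10 at 0.27 ± 0.30. Their 95% intervals ran from -0.53 to 0.96 and from -0.38 to 0.92.

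Other genes of the same pathways, 126 measured of a list of 127 and 70 of them tested, held 1 gene that passed with limma in any comparison, for HDM averaged over genotypes, where 0.399% of all genes passed. On the same list DESeq2 passed 2 genes for HDM in WT, 1 for HDM in cKO, 1 for cKO against WT under HDM and 2 for HDM averaged over genotypes, where 1.78%, 0.373%, 1.86% and 1.41% of all genes passed. Cyp2f2, the P450 enzyme that activates naphthalene and is typical of club cells, fell with HDM averaged over genotypes by 0.88 ± 0.15 on the log2 scale (limma adjusted p = 0.0127). It had 1660.3 and 2454 in cKO HDM and 1659.7 and 1894 in WT HDM, against 5044 and 3569.6 in cKO PBS and 2955 and 2735 in WT PBS. All 4 HDM libraries lay under all PBS libraries. Under HDM the lowest p-values between genotypes were those of Gpx3, an extracellular glutathione peroxidase, at -2.70 ± 0.78, and Txnip, a thioredoxin inhibitor, at 0.64 ± 0.19, cKO over WT (limma adjusted p = 0.172 and 0.185). Gpx3 had 17.4 and 4.15 in cKO HDM against 46.95 and 82.5 in WT HDM, and 37.4 and 25.4 in cKO PBS against 5.36 and 18.2 in WT PBS. The value of 4.15 rests on 5 reads and that of 5.36 on 7. Txnip had 1079.8 and 1076 in cKO HDM against 646 and 744 in WT HDM, and 1000.4 and 1087 in cKO PBS against 936 and 885 in WT PBS. The response of Gpx3 also had the smallest interaction p, followed by Tkt, transketolase, at -1.39 ± 0.51 (limma adjusted p = 0.399 and 0.547). In WT alone Sult1d1, a sulfotransferase, stood at -2.03 ± 0.55 (limma adjusted p = 0.157). Sult1d1 had 21.0 and 45.7 in cKO HDM and 15.0 and 9.02 in WT HDM, against 45.5 and 49.5 in cKO PBS and 54.3 and 47.3 in WT PBS. In WT both HDM libraries of Sult1d1 lay under both PBS libraries, and in cKO its second HDM library lay just above the lower PBS library. In cKO alone Cyp2f2 stood at -1.07 ± 0.21 and Ahr, the dioxin receptor, at 2.09 ± 0.73 (limma adjusted p = 0.130 and 0.537). Ahr had 13.8 and 24.1 in cKO HDM against 3.25 and 3.81 in cKO PBS, with 50.9 and 38.7 in the WT HDM libraries and 21.4 and 17.3 in the WT PBS libraries. Its cKO PBS values rest on 2 and 3 reads. They do not exceed the limit that a count of 0 allows there, 4.88 and 3.81, so folds of Ahr against cKO PBS are uncertain. Without allergen Ahr stood at -2.16 ± 0.73 and Cbr2, a carbonyl reductase of lung, at 0.53 ± 0.19, cKO over WT (limma adjusted p = 0.682 and 0.694). Cbr2 had 1205 and 1294 in cKO HDM against 879.7 and 1165 in WT HDM, and 1890.2 and 1656 in cKO PBS against 1203 and 1252 in WT PBS. Tkt had 131 and 99.7 in cKO HDM and 153 and 249 in WT HDM, against 223 and 116 in cKO PBS and 94.2 and 115 in WT PBS. The list as a whole had a median of -0.13 for HDM averaged over genotypes, with 41 of 70 (58.6%) negative, against a median of 0.04 and 47.2% negative over all genes tested.

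Summed over all 39 genes, reads of this module made up 1.99% (95% Clopper-Pearson interval 1.95 to 2.03) and 2.15% (2.11 to 2.20) of the cKO HDM libraries and 1.57% (1.54 to 1.60) and 1.58% (1.54 to 1.63) of the WT HDM libraries. They made up 2.39% (2.33 to 2.45) and 2.06% (2.01 to 2.11) of the cKO PBS libraries and 2.10% (2.06 to 2.15) and 2.10% (2.05 to 2.14) of the WT PBS libraries. The intervals cover counting error only. The WT HDM pair lay below all other libraries, and the cKO HDM and cKO PBS libraries overlapped. Without Aldh1a1, the most abundant member, the WT HDM pair was still lowest, at 1.29% and 1.34% against 1.65% to 1.93% elsewhere.

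Markers of several cell types also differed between the groups, and not all in the direction of this share. The 15 ciliated markers took 1.00% to 1.02% of reads in cKO HDM and 0.546% to 0.548% in WT HDM, against 0.891% to 0.928% in cKO PBS and 0.899% to 0.930% in WT PBS. The 10 club markers took 1.80% to 2.01% in cKO HDM and 1.32% to 1.62% in WT HDM, against 2.44% to 3.07% in cKO PBS and 2.09% to 2.12% in WT PBS. In WT HDM, alveolar type 2 markers took 3.24% to 4.29%, against 1.32% to 1.80% in WT PBS, and macrophage and dendritic cell markers (13 genes, with Siglecf and Flt3 at 0 in every library) 0.332% to 0.530%, against 0.128% to 0.227%. The 10 goblet markers took 0.619% to 1.51% in cKO HDM and 0.462% to 0.814% in WT HDM, against 0.383% to 0.396% in cKO PBS and 0.145% to 0.301% in WT PBS, so that all HDM libraries lay above all PBS libraries. Of 7 goblet markers tested 2 passed with limma for HDM averaged over genotypes, where 0.399% of all genes passed. The median log2 fold change of the 7 was 1.89. In that comparison 3 of 13 alveolar type 2 and 3 of 5 fibroblast and smooth muscle markers tested passed too, and 0 of the other lists. The 5 erythroid markers took 0.0592% to 0.104% in WT HDM, against 0.000881% to 0.00973% in the other libraries. No marker of the goblet, erythroid, club, ciliated, alveolar type 2, endothelial or fibroblast lists was at 0 in every library. In bulk samples fewer cells of a type and less RNA per cell cannot be told apart, and the part of these markers in the values above was not tested. Alveolar type 2 markers took 1.47% to 1.57% in cKO HDM, against 1.48% to 1.69% in cKO PBS.

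**Figure D5:**
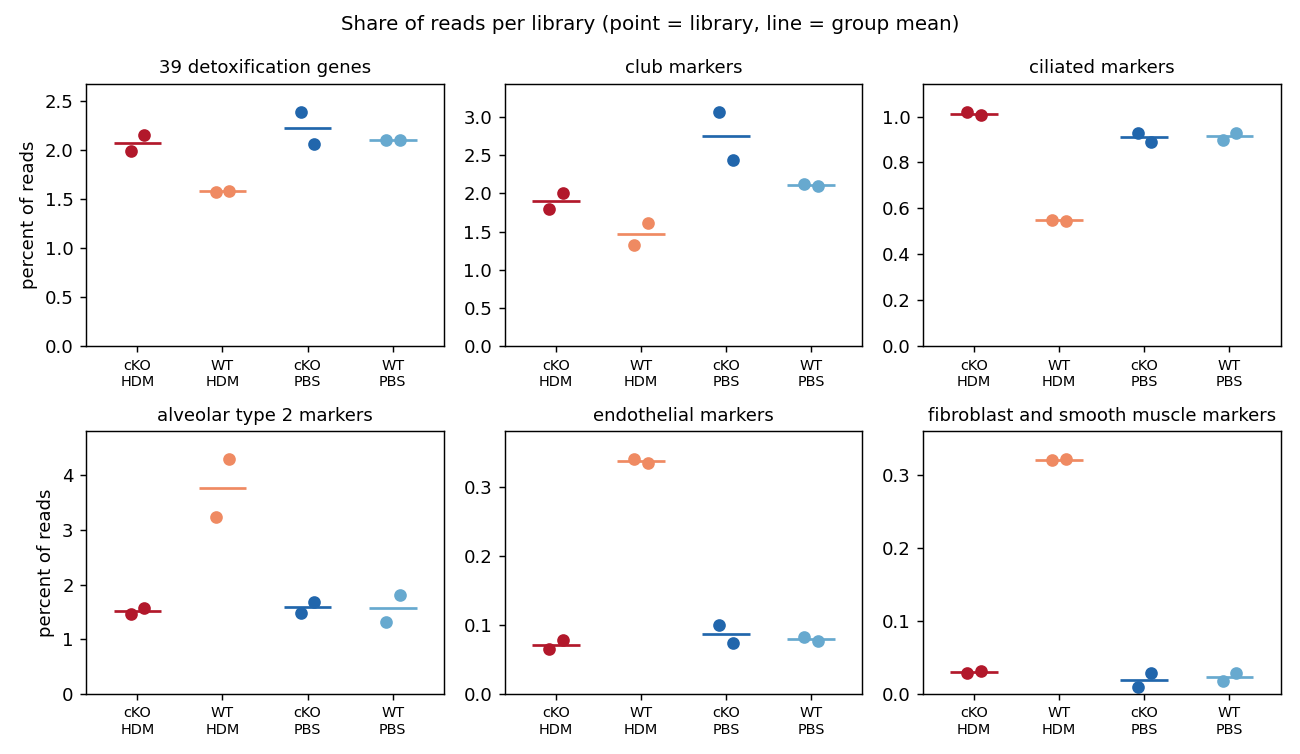
Percent of reads (y axis) taken by the 39 detoxification genes and by 5 lists of cell type markers in each group (x axis), with 1 point per library and a line at the group mean. The WT HDM libraries are lowest for the detoxification genes (1.57% and 1.58%), club and ciliated markers, and highest for alveolar type 2, endothelial and fibroblast markers.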

How the data were processed

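Airway epithelial cells had been sorted from lung, total RNA extracted with TRIzol and directional libraries made from low input, per the labels' protocols. The deposited signal values are read counts divided by a size factor per library. HOMER, DESeq2 and mm10 are named in the submitters' processing notes, without roles. The sources used here do not give the aligner, annotation release or use of strand, so overlapping and antisense genes cannot be separated with certainty. All non-zero values (100% within 0.01 reads) were whole multiples of the value of 1 read, which gave back the reads.

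Values were analysed as log2(value + 1), so that fold changes understate those of low genes. Genes with a mean of at least 10 (7512) were fitted with limma 3.58.1 in R 4.3.3 (1 mean per group, trended variance, Benjamini-Hochberg adjustment, two-sided, threshold 0.05) for 6 comparisons. As alternatives, DESeq2 1.42.0 and the quasi-likelihood test of edgeR 4.0.16 were run on the recovered reads. The limma fit was also run on simulated reads with known changes, whose outcome is not given here and is not used above. Named were genes that passed, the 4 smallest p per comparison and the 2 most abundant members per role, and of the other pathway genes those that passed or the 2 smallest p, of which 1 gene is not reported here. Genes given beside these were chosen after their values were seen. Members and lists were chosen with earlier results of these data known. Positions and promoters are from RefSeq (GRCm38.p6, the same assembly as mm10), and lengths and shared windows from GENCODE M21. Alternatives were other pseudocounts, filters, size factors and tools, a replicate block, and each library left out.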

Additional observations from a re-analysis of the deposited data

How the results depend on the processing

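Every one of the 24 fold changes given for the smallest p-values kept its direction in all 376 refits that gave it a value. That count is no measure of robustness. The genes were picked by p-value in the same data. A filter, a replicate block or leaving out a library outside the comparison could not change a limma estimate, and recomputed size factors barely could. Calls among the 37 members depended on the setting, and the cause was not tested. With a pseudocount of 5 there were 2 calls for HDM against PBS in WT, 1 for cKO against WT under HDM and 1 for HDM averaged over genotypes. With a minimum mean of 50, which left members such as Aldh3a1 (mean 46.8) untested, there were 2, 1 and 3. With DESeq2 there were 2, 1 and 4. The remaining comparisons kept 0 calls there, and a pseudocount of 0.2, no filter, recomputed size factors and edgeR gave 0 in every comparison. Leaving out 1 library gave 0 to 2 calls for HDM in WT, 0 to 1 for HDM in cKO, 0 to 1 for each comparison of genotypes, 0 in the interaction and 0 to 2 for HDM averaged over genotypes. All of these calls came from leaving out a cKO PBS library. With 1 library left out, 4 to 8 members separated downward with HDM (10.8% to 21.6%) and 1 to 2 upward (2.7% to 5.41%). The shares of all genes tested rose too in those settings. They were 2.62% to 3.31% downward and 3.21% to 4.41% upward, against 1.66% and 2.26% with all libraries.

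Over all genes, calls ranged with 1 library left out from 3 to 110 for HDM in WT (39 with all libraries), 0 to 320 in cKO (4), 3 to 117 for cKO against WT under HDM (43), 0 to 315 under PBS (0), 0 to 115 for the interaction (2) and 10 to 193 for HDM averaged over genotypes (30). In the same order DESeq2 called 134, 28, 126, 0, 27 and 106, and without a filter 14, 0, 9, 0, 0 and 13 genes passed. A pseudocount of 5 gave 108, 14, 99, 0, 12 and 60, and one of 0.2 gave 16, 0, 29, 0, 0 and 21. A minimum mean of 50 gave 77, 16, 85, 0, 9 and 59, and edgeR 59, 4, 54, 0, 7 and 43. Recomputed size factors differed from the deposited ones by the same factor in every library. With the replicate number as a block 0 members passed in each comparison, and same-numbered libraries did not deviate together (r from -0.02 to 0.02 between groups), so the numbers show no pairing. Counts under 20 reads, as for Gss, Nqo1 and Hmox1 in single libraries, limit what can be said of low members.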
